A study of Homo sapiens with 6 samples.

Results

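Developmental transcription factor genes of 10 families were followed in 2 human diffuse large B-cell lymphoma lines, KARPAS-422 and Pfeiffer, after a hairpin against EZH2. The families were HOXA, HOXB, HOXC, HOXD, SOX, GATA, TBX, LHX and NKX, and the sine oculis homeobox genes (SIX2, SIX4, SIX5 and their relatives). A gene was taken when a probe set annotated to it alone carried a protein-coding symbol made of one of these names and a number; antisense and host transcripts were left out. This gave 89 genes of the 19775 represented on the arrays: 19 SOX, 13 TBX, 10 HOXB, 10 NKX, 9 HOXC, 8 HOXD, 8 LHX, 6 GATA and 5 sine oculis genes, and 1 HOXA gene, HOXA2. Other HOXA genes were not analysed here. Each gene was read from its probe set with the highest mean over the 6 arrays, and no signal filter was applied.

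Both lines are established B-cell lymphoma lines that are known to carry gain-of-function EZH2 mutations. They were infected with lentivirus carrying one of 2 hairpins, shEZH2 against EZH2 or shNTC, a control directed at a non-mammalian sequence, selected with puromycin, and labelled as 10-day samples. Each KARPAS-422 arm had 2 arrays, which the titles call biological replicates, while each Pfeiffer arm had 1. Each arm rests on 1 hairpin sequence, and nothing in the labels says whether the KARPAS-422 replicates were separate infections. The p-values thus rest on the spread between these arrays, which limma moderates for each gene towards that of genes of similar level. Pfeiffer differences between arms have no replicate check.

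EZH2 is the enzyme of PRC2, the Polycomb complex that places methyl groups on lysine 27 of histone H3. Genes of the families studied here pattern the body axis, the limbs, the heart, the nervous system and other organs, and they are textbook targets of Polycomb repression in cells that do not use them. Most have CpG-rich promoters. In mature B cells most of these genes are off, while a few, among them HOXB and HOXC genes and SOX4, are known to be used in blood cells.

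The values are log2 of MAS5 signals, a microarray summary that scales each array on its own. In KARPAS-422, EZH2 itself had log2 signals of 11.71 and 11.57 under shNTC and of 10.52 and 10.55 under shEZH2, a difference of -1.11 (SE 0.09, n = 2 per arm, limma adjusted p = 0.00192) that left 46.3% of the signal. In Pfeiffer it went from 11.65 to 10.24, leaving 37.6%. No array stood apart in its median log2 signal, which lay between 6.08 and 6.41. The difference between 3′ and 5′ control probe sets of ACTB was 0.06 and 0.08 for KARPAS-422 with shNTC and 0.14 and 0.18 with shEZH2.

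The labelled cell type was checked on marker lists. All 7 measured B-cell markers were above background in KARPAS-422 and 6 in Pfeiffer, where EBF1 was not (6.02 and 6.01) and CD79A was dim (8.17 and 9.13). Markers of other lineages were also seen. CD3D and CD3G (11.24 to 12.08 under shNTC) and the fibroblast gene DCN (13.60 and 13.71) were bright in KARPAS-422. In Pfeiffer, CD8A (13.49) and EPCAM (13.33) were bright and KRT18 was at 8.67. These are single members of their lists. In KARPAS-422 under shNTC, 2 of 8 T and NK cell markers, 2 of 5 fibroblast and 0 of 5 epithelial markers were above background. In Pfeiffer under shNTC the numbers were 1 of 8, 2 of 5 and 3 of 5. None of 5 myeloid markers was above background on any array. What these signals mean for the identity of the cells was not tested.

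Because no gene of these families can be called on or off from a MAS5 value alone, a background level was set for each array as the 95th percentile of 115 reference genes, the olfactory receptors and keratin-associated proteins, which B cells are not known to use. It lay at 6.98 and 7.14 for KARPAS-422 with shNTC, at 6.70 and 6.49 with shEZH2, and in Pfeiffer at 6.72 with shNTC and 6.82 with shEZH2. A gene was called above background in a group when it passed this level on every array of it. Dim signals tended to be lower under shEZH2 in KARPAS-422. The reference genes had a median difference of -0.28 there, with 75 of 115 below 0, and of 0.11 in Pfeiffer. The 8 HOXD genes, all dim, had a median of 0.40 in KARPAS-422, so this did not hold in every family.

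Few of these genes had signal in either line. Under shNTC, 11 of 89 were above background in KARPAS-422, or 12.4%, against 47% of all 19775 genes. In Pfeiffer 25 were, or 28.1%, against 54.9% of all genes. The lines shared 10 of them, SOX9 was above background in KARPAS-422 alone, and 15 were in Pfeiffer alone. Those 15 were called on 1 array each, while KARPAS-422 genes had to pass on 2, so they include genes close to the background level. They need not differ between the lines. HOXB3, for example, was at 7.33 in Pfeiffer and at 7.09 and 7.03 in KARPAS-422 under shNTC. The other 63 passed in neither line, and 57 were not above background on any of the 6 arrays. Only 9 passed on all 6: HOXB4, HOXB5, HOXB7, HOXC4, SOX4, SOX5, SOX6, SOX12 and SIX4. These counts rest on 1 probe set per gene, and a dimmer one can differ. For example, another probe set of GATA6 was at 7.03 and 6.88 in Pfeiffer under shNTC and shEZH2. One of GATA4 was at 6.90 and 7.10. Both were above background there, while the probe sets used for these genes were not. The reverse was seen too. Of 3 GATA2 probe sets, only the one used was above background under shNTC in either line. The other HOXB5 probe set was at 6.73 and 6.68 in KARPAS-422 under shNTC, below background.

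**Figure D1:**
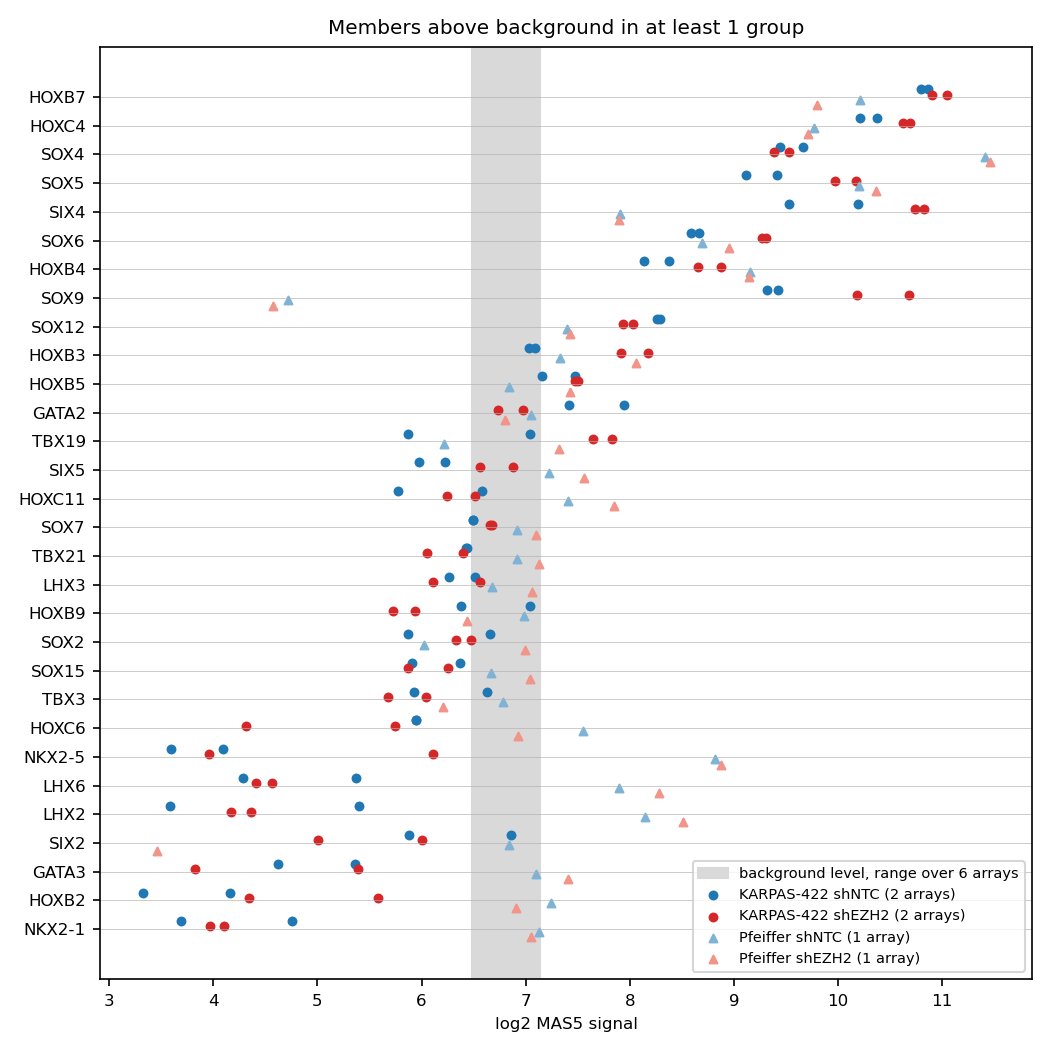
Log2 MAS5 signal (horizontal axis) of each gene that was above background in at least 1 group, 1 point per array; circles are KARPAS-422 and triangles Pfeiffer, and the grey band spans the background levels of the 6 arrays. The upper rows lie to the right of the band on all arrays; SOX9 is right of it in KARPAS-422 alone, at 9.32 to 10.68, and NKX2-5, LHX6 and LHX2 in Pfeiffer alone.

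The HOX genes, which set position along the body axis and are arranged in clusters, were on in a few places of the HOXB and HOXC clusters. HOXB7 was at 10.79 and 10.86 under shNTC in KARPAS-422, 11.05 and 10.90 under shEZH2, and 10.21 and 9.80 in Pfeiffer. All 3 of its probe sets were above background in both lines. HOXC4 was at 10.38 and 10.21, then 10.69 and 10.63, and at 9.77 and 9.71 in Pfeiffer. HOXB4, known for its action in blood stem cells, was at 8.38 and 8.14, then 8.88 and 8.66, and at 9.15 on both Pfeiffer arrays. HOXB5 lay just above background, at 7.48 and 7.16, then 7.50 and 7.47, and at 6.84 and 7.43 in Pfeiffer. Its other probe set was below background in KARPAS-422 under shNTC.

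No other gene of these clusters passed the background level on both KARPAS-422 shNTC arrays. HOXB6, between HOXB5 and HOXB7 by number, was at 5.02 and 5.54 on them and at 6.52 in Pfeiffer under shNTC, below background. HOXB2 was at 3.32 and 4.16 in KARPAS-422 under shNTC and at 7.25 in Pfeiffer. HOXB9 was at 7.04 and 6.38 in KARPAS-422 and 6.98 in Pfeiffer under shNTC. HOXC6 and HOXC11 were above background in Pfeiffer alone, at 7.55 and 7.41, while the 2 KARPAS-422 shNTC arrays gave 5.94 and 5.95 for HOXC6 and 5.78 and 6.58 for HOXC11. The test between the lines under shNTC called neither. None of the 8 HOXD genes was above background on any array, and HOXD8, with the highest mean of them, reached 6.32. HOXA2, which patterns the hindbrain, was not above background on any array either.

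**Figure D2:**
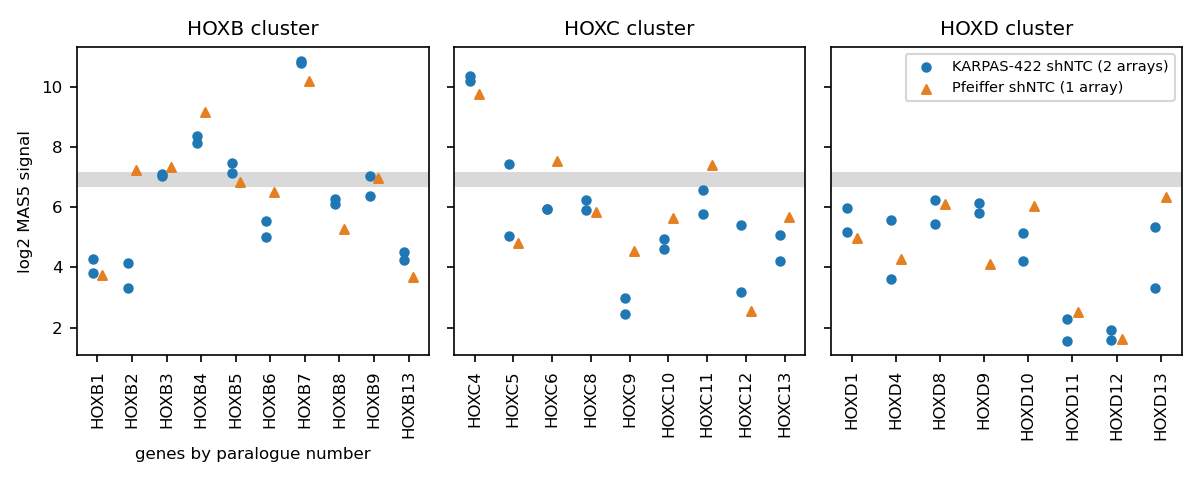
Log2 MAS5 signal under shNTC (vertical axis) of the HOXB, HOXC and HOXD genes in order of paralogue number; blue circles are the 2 KARPAS-422 arrays, orange triangles the Pfeiffer array, and the grey band spans the background levels of these 3 arrays. HOXB4, HOXB7 and HOXC4 lie above the band in both lines, and every HOXD gene lies below it.

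Among the 19 SOX genes, 5 were above background in KARPAS-422 and 5 in Pfeiffer. SOX4, which B-cell precursors need, was at 9.45 and 9.66 under shNTC and 9.39 and 9.53 under shEZH2 in KARPAS-422, and at 11.41 and 11.46 in Pfeiffer. Its close relative SOX12 was at 8.26 and 8.29, then 8.03 and 7.93, and at 7.40 and 7.43 in Pfeiffer. SOX5 and SOX6, paired factors of cartilage formation, and SOX9, the factor that acts with them there and in testis development, are described with the knockdown. SOX7, an endothelial factor, was at 6.92 in Pfeiffer under shNTC and at 6.50 and 6.49 in KARPAS-422, near the background level in both.

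In the other families, signal was scarce in KARPAS-422. SIX4 was the only sine oculis gene and GATA2, a factor of blood stem cells, the only GATA gene above background there, and no TBX, LHX or NKX gene was. GATA2 was at 7.42 and 7.95 under shNTC, 6.73 and 6.98 under shEZH2, and 7.05 and 6.80 in Pfeiffer. Its other probe sets were not above background under shNTC in either line. On the probe sets used, Pfeiffer added GATA3, a factor of T cells and of luminal epithelium, at 7.10, TBX21, the T-bet factor of T helper and NK cells, at 6.92, and TBX3 at 6.78. It also added SIX5 at 7.22 and SIX2, a factor of kidney progenitors, at 6.84, next to the background level of 6.72. SOX15, LHX3, SOX2 and NKX6-2 lay between 6.02 and 7.07 on the Pfeiffer arrays. No LHX or NKX gene was above background in both lines.

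Under shEZH2, 5 of the 89 genes were higher in KARPAS-422 and 0 were lower by limma with Benjamini-Hochberg adjustment over all genes at 0.05. They were SOX5, SOX6, SOX9, SIX4 and HOXB3. The 5 are 5.62% of the 89, against 6.94% of all genes called higher, 6.2% called lower and 13.1% called in either direction. The share of these families that rose was thus near that of the whole array. Before adjustment, 14 genes (15.7%) had a limma p under 0.05, 9 of them higher and 5 lower. The share of all genes at that unadjusted threshold was not counted, so the 14 are not read as a result. In bulk RNA, more cells with a transcript and more transcript per cell cannot be told apart.

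SOX5 had log2 signals of 9.41 and 9.12 under shNTC and 9.97 and 10.18 under shEZH2. The difference was 0.81 (SE 0.14, 95% interval 0.46 to 1.16, n = 2 per arm, limma adjusted p = 0.0177), or 1.75-fold. Its partner SOX6 was at 8.67 and 8.58, then 9.30 and 9.27, a difference of 0.66 (SE 0.14, interval 0.33 to 0.99, adjusted p = 0.0269). Both genes also had signal in Pfeiffer, where SOX5 was at 10.20 and 10.37 and SOX6 at 8.70 and 8.95.

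SOX9 rose from 9.42 and 9.32 to 10.68 and 10.18 (difference 1.06, SE 0.22, interval 0.52 to 1.60, limma adjusted p = 0.0292), or 2.09-fold. In Pfeiffer it was below background in both arms, at 4.71 and 4.57. SIX4, a homeodomain factor of muscle and sensory development, was at 9.53 and 10.19 under shNTC and 10.82 and 10.74 under shEZH2 (0.92, SE 0.22, interval 0.40 to 1.45, adjusted p = 0.0408). Its shNTC arrays lay further apart than its shEZH2 arrays. In Pfeiffer SIX4 was at 7.91 and 7.90.

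HOXB3 was the one gene among the 5 that began at the background level. Its shNTC arrays gave 7.09 and 7.03, one just over and the other just under the level of its array, and the shEZH2 arrays 7.92 and 8.18 (0.99, SE 0.22, interval 0.45 to 1.52, limma adjusted p = 0.0357). In Pfeiffer it was above background in both arms and went from 7.33 to 8.06. Of the 78 genes that were not above background in KARPAS-422 under shNTC, HOXB3 was the only one called, against 3.64% of the 10485 genes of the array that were likewise not above background.

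**Figure D3:**
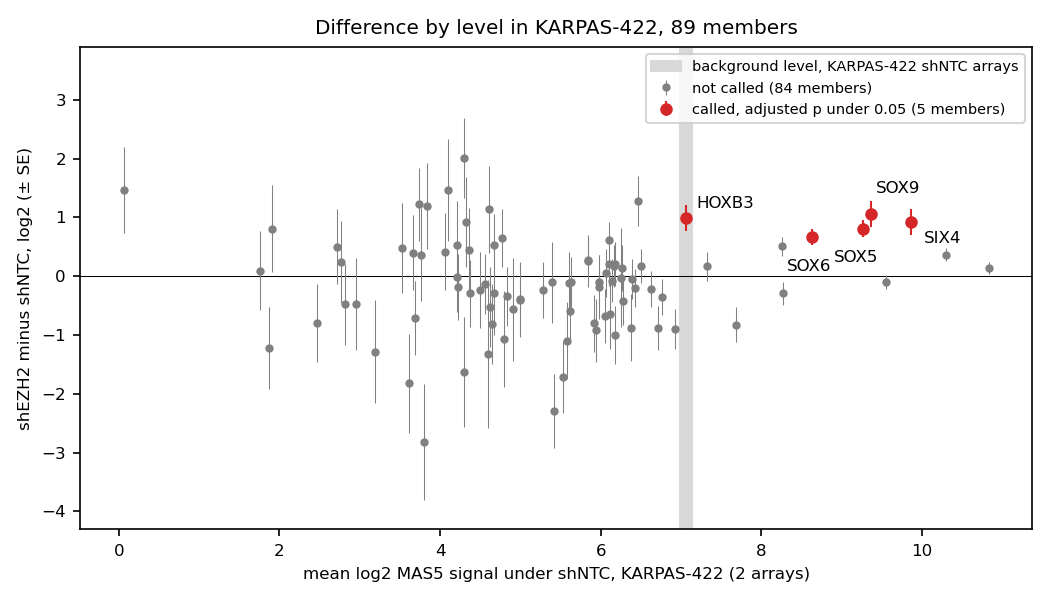
Difference between shEZH2 and shNTC in KARPAS-422 (log2, bars are SE) against the mean log2 signal under shNTC, for all 89 genes; red points are the 5 called genes and the grey band is the background level of the shNTC arrays. The called genes lie at or right of the band between 0.66 and 1.06, while the points left of it scatter on both sides of 0 with long bars.

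Other genes with signal in KARPAS-422 did not pass the test. HOXC4 differed by 0.36 (limma adjusted p = 0.0772), HOXB4 by 0.51 (adjusted p = 0.102), HOXB7 by 0.14 (adjusted p = 0.412) and HOXB5 by 0.17 (adjusted p = 0.717). The value was -0.09 for SOX4, -0.29 for SOX12 and -0.83 for GATA2, with adjusted p = 0.125 for the last. The 11 genes above background under shNTC had a median difference of 0.37, against -0.04 for the 9290 genes of the array above background there. Over all 89 genes the median was -0.10, against -0.05 for all genes, and 51 were below 0.

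Genes near the background level need separate reading, because the level itself was lower on the shEZH2 arrays. HOXB3, TBX19 and SIX5 were above background under shEZH2 but not under shNTC, and no gene was lost. TBX19, the T-box factor of pituitary corticotrope cells, was at 5.87 and 7.04 under shNTC and 7.64 and 7.83 under shEZH2, a difference of 1.28 (SE 0.42, limma adjusted p = 0.102). SIX5 was at 5.97 and 6.22, then 6.88 and 6.56, and it did not pass the shNTC levels, while HOXB3 and TBX19 did. The 57 genes not above background on any array had a median of -0.22, close to the -0.28 of the reference genes, with 36 of 57 below 0.

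Marker genes of other cell types moved with the hairpin in KARPAS-422 too, where 6.2% of all genes were called lower. The summed signal of the 8 T and NK cell markers was 12.65 and 12.78 under shNTC and 12.11 and 11.97 under shEZH2 on the log2 scale, and CD3D was called lower. That of the 4 erythroid and megakaryocyte markers went from 8.21 and 8.39 to 7.47 and 7.48, with 1 of 4, HBB, called lower. That of the 5 neural markers went from 13.42 and 13.41 to 13.07 and 12.85, nearly all of it TUBB3, which was called lower. That of the 5 fibroblast markers was 13.75 and 13.64, then 13.64 and 13.48, mostly DCN, which was not called. The 5 epithelial markers lay between 7.37 and 8.05, with overlapping arms. The part of these in the differences of the 5 called genes was not tested.

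The calls depend on how the spread was estimated and on single arrays. Without the intensity trend in the variance estimate 0 of the 89 genes passed, and 0 of all 19775 genes did. Leaving out shNTC replicate 1 left SOX5 alone, leaving out shNTC replicate 2 gave 3 calls (SOX5, SIX4 and TBX19), and leaving out either shEZH2 replicate gave 0. Quantile normalization gave 2 calls, cyclic loess normalization 1 and the mean over all probe sets of a gene 1. Over all genes these settings gave 2263, 2105 and 1618 calls, against 2598. Adding 16 to the linear signals gave 6 calls, the same 5 and LHX5 as lower, and adding 64 gave LHX5 as lower and 4 of the 5, without SIX4. LHX5, a forebrain factor named after its values were seen, was at 5.55 and 5.28 under shNTC and 2.76 and 3.49 under shEZH2 (-2.29, adjusted p = 0.0616 with nothing added), not above background on any array. The differences of the 5 genes called with nothing added stayed above 0 in each of these settings, except that SOX5 was at -0.04 when its 4 probe sets were averaged.

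Further probe sets of the same genes bear on this. The other SOX9 probe set, also above background in KARPAS-422, differed by 0.64, and the other SIX4 probe set, just under background with shNTC, by 0.92. Of the 4 SOX5 probe sets, the next brightest differed by 0.74 and the dim ones by 0.00 and -1.71. SOX6 had 8 probe sets, of which 1 was above background; the others ranged from -2.74 to 2.997. The second HOXB3 probe set, below background, differed by 0.16. The brightest probe set of each gene is the one on which it was called, so its upward difference is no further evidence. Of the others, those of SOX9, SIX4 and HOXB3 and the next brightest of SOX5 differed upwards. The remaining ones of SOX5 and SOX6, all dim, had no common direction. These further probe sets were not tested.

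**Figure D4:**
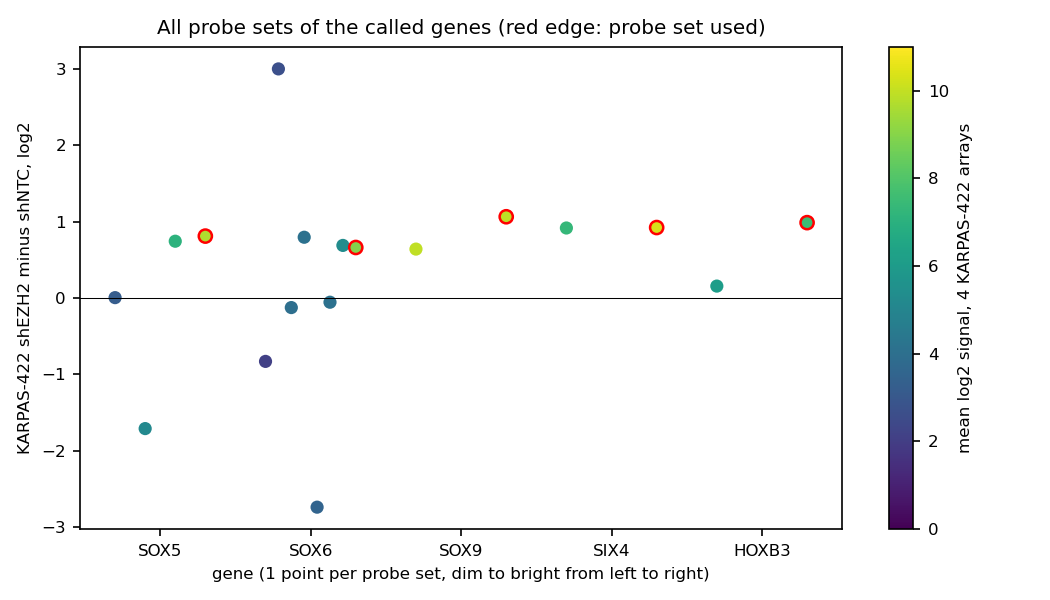
Difference between shEZH2 and shNTC in KARPAS-422 (log2) for each probe set of the 5 called genes, placed from dim to bright within a gene and coloured by the mean log2 signal over the 4 KARPAS-422 arrays; a red edge marks the probe set used. Both probe sets of SOX9 and of SIX4 lie above 0, and those of SOX5 and SOX6 that spread widely are dark, that is dim.

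Promoter sequences in the RefSeq table (GRCh38.p14) were at hand for 51 of the 89 genes, and of the 5 called genes for SIX4, SOX5 and SOX6. The 250 bases before the annotated start of these 3 are shown because CpG-rich promoters are the kind that Polycomb complexes are known to occupy, with each CG in capitals. They are chr14:60724352-60724601 for SIX4, chr12:24562492-24562741 for SOX5 and chr11:16738478-16738727 for SOX6, all on the minus strand and written 5′ to 3′.
SIX4: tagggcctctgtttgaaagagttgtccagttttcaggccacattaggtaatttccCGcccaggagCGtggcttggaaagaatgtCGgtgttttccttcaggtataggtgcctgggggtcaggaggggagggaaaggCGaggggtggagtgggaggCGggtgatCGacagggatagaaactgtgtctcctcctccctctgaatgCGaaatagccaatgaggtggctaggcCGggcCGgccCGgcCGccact
SOX5: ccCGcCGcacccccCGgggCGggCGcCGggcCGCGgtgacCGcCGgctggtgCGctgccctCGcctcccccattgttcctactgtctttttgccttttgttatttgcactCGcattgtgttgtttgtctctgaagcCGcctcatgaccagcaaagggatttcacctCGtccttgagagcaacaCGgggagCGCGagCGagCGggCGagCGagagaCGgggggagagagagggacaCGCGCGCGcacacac
SOX6: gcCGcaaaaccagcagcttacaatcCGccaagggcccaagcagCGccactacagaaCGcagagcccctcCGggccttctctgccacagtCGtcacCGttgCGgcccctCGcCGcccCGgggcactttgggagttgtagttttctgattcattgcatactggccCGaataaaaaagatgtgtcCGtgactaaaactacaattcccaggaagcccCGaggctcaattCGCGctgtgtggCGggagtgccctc
The stretch of SOX5 held 27 CG, that of SOX6 17 and that of SIX4 11, most of them towards its start site.

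A promoter was counted as CpG-rich when the 300 bases from 250 before to 50 after the start had over 50% G and C and an observed to expected CpG ratio over 0.6. This held for 39 of 51 members, or 76.5%, against 63.2% of 15843 protein-coding promoters and 3 of 90 reference genes. Among members above background in a line under shNTC it held for 11 of 13 (84.6%), and among the others for 28 of 38 (73.7%). HOXC4, in the first set, and HOXC5, in the second, had the same values (15 CG, 51.7% G and C, ratio 0.755). The 51 promoters may thus not all be separate stretches, which was not checked. SIX4 was near the limit, with a ratio of 0.602, while SOX5 had 0.958 and SOX6 0.818. The median number of CG was 22 in the members and 22 in all promoters. The letters TATAAA on either strand were found in 2 of 51 members, or 3.9%, against 9.6% of all promoters, and CCAAT on either strand in 26 of 51, or 51.0%, against 36.4%. These are counts of letters, with nothing measured at the promoters here.

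In Pfeiffer, with 1 array per arm, 24 of the 89 genes differed by 1 log2 unit or more, 15 of them higher under shEZH2. That is 27%, against 15.4% of all genes. The same 24 and 23 genes in number differed by as much between the replicate arrays of one arm in KARPAS-422 (shNTC, then shEZH2), where 15.4% and 14.4% of all genes did. Only 2 of the 24 were above background in either Pfeiffer arm. TBX19 went from 6.22, below background, to 7.33, above it, a measured difference of 1.11. SIX2 went from 6.84, just over background, to 3.46, below it, so the size of its difference is not known, and its other probe set, below background in both arms, differed by -0.54.

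On the probe sets used, genes with signal in both Pfeiffer arms differed by under 1 log2 unit between them. The other probe set of NKX2-1, above background in both arms at 7.40 and 8.52, differed by 1.11. NKX2-5, the heart factor, was at 8.82 and 8.87, LHX2, a factor of the forebrain and eye, at 8.14 and 8.51, and LHX6, a factor of cortical interneurons, at 7.90 and 8.28. SOX4 differed by 0.04, SOX5 by 0.17, SOX6 by 0.26 and SIX4 by -0.01. HOXB3 differed by 0.74, HOXB5 by 0.59, HOXB7 by -0.41 and HOXC6 by -0.63. The median over the 25 genes above background was 0.05, against 0.01 for the 10860 genes of the array above background there. TBX19, LHX3, SOX2 and SOX15 moved over the background level and GATA2, HOXB9, TBX3 and SIX2 moved under it, and of these 8, TBX19 and SIX2 alone moved by 1 log2 unit or more.

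**Figure D5:**
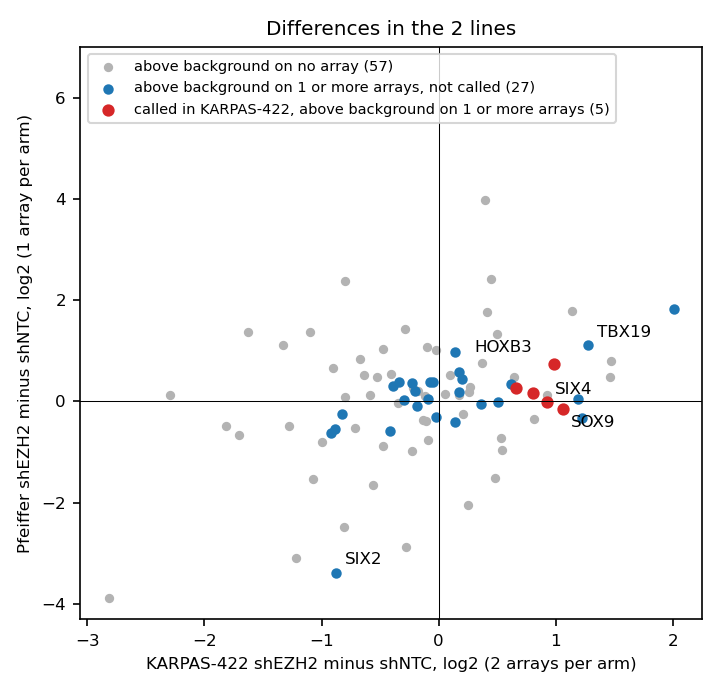
Difference between shEZH2 and shNTC in Pfeiffer (vertical, 1 array per arm) against that in KARPAS-422 (horizontal, 2 arrays per arm), both in log2, for the 89 genes. Grey points were above background on no array and spread over both axes; the 5 red points, called in KARPAS-422, lie between 0.66 and 1.06 there and between -0.14 and 0.74 in Pfeiffer.

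Whether the lines differed in their response was tested by the difference between the Pfeiffer and the KARPAS-422 effect. With 1 Pfeiffer array per arm, the spread behind this test comes from KARPAS-422 alone, and Pfeiffer is taken to vary like it. The difference passed for 0 of the 89 genes and for 0.576% of all genes by limma, and 0 of the 89 were called under any alternative tried. Before adjustment, 8 of the 89 had a p under 0.05, and the share of all genes at that threshold was not counted. For SIX4 the difference was -0.93 (95% interval -1.84 to -0.02, adjusted p = 0.352) and for HOXB3 -0.25 (interval -1.18 to 0.68, adjusted p = 0.829). For SOX5 it was -0.64 (interval -1.24 to -0.04, adjusted p = 0.336) and for SOX6 -0.41 (interval -0.97 to 0.16, adjusted p = 0.508). The intervals of SIX4 and SOX5 lay below 0 before adjustment, so these data neither show a difference between lines after adjustment nor that the responses were alike. SOX9 was below background on both Pfeiffer arrays, so its fitted difference of -1.21 (adjusted p = 0.271) does not bear on its response there.

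With both lines in one model, 0 of the 89 genes passed, against 1.53% of all genes. Before adjustment, 14 had a limma p under 0.05, 8 higher and 6 lower, and the share of all genes at that threshold was not counted. HOXB3 came closest, with a common difference of 0.90 (limma adjusted p = 0.0626), higher in 3 of 3 shEZH2 arrays. It was called, alone, when dim probe sets were removed before the fit. NKX2-3, not above background on any array and named after its values were seen, came next at -3.17 (adjusted p = 0.0771). SOX6 was at 0.53 (adjusted p = 0.0912) and GATA1, described below, at 1.95 (adjusted p = 0.0917). TBX19 was at 1.22 (adjusted p = 0.0923) and SOX5 at 0.60 (adjusted p = 0.0928). SOX9 and SIX4 had 0.66 and 0.61, with adjusted p = 0.219 and 0.185.

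GATA1, the erythroid GATA factor, was chosen for mention after its values were seen, as it had the largest positive difference of all 89 genes in KARPAS-422. It was at 4.99 and 3.60 under shNTC and 6.89 and 5.72 under shEZH2, and at 4.28 and 6.12 in Pfeiffer. Above background on 1 of these 6 arrays, it differed by 2.01 in KARPAS-422 (SE 0.68, limma adjusted p = 0.109) and by 1.83 in Pfeiffer. Its other probe set, above background on no array, differed by 0.27 and 0.05. Of the erythroid and megakaryocyte markers, HBB fell by 1.15 in KARPAS-422 (adjusted p = 0.0365), and KLF1 differed by -1.02 (adjusted p = 0.187). PF4 differed by -0.46 and ITGA2B by 0.46 there, neither of them called. In Pfeiffer, HBB differed by 0.45, KLF1 by 0.57, PF4 by -1.05 and ITGA2B by -0.71. KLF1 and PF4 were above background on no array.

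The lines themselves differed in more of these genes than the knockdown moved. Under shNTC, 15 of 89, or 16.9%, differed between Pfeiffer and KARPAS-422 by limma, against 27.8% of all genes; 8 were higher in Pfeiffer (14.1% of all genes were) and 7 lower (13.7%). This rests on 1 Pfeiffer array, taken to vary like the KARPAS-422 arrays. Leaving out 1 KARPAS-422 array at a time gave 12 to 16 calls, and leaving out the variance trend 5.

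Where a gene was not above background in one line, the fold is a lower bound taken against the background level there. SOX9 was lower in Pfeiffer by at least 6.27-fold (measured difference -4.66, SE 0.27, limma adjusted p = 7.0e-05). NKX2-5 was at least 3.39-fold higher in Pfeiffer (4.98, adjusted p = 0.0071), where KARPAS-422 gave 4.09 and 3.59. LHX2 was at least 2.12-fold higher (3.65, adjusted p = 0.0159) and LHX6 at least 1.78-fold (3.06, adjusted p = 0.0109). Both probe sets of LHX2, and 1 of 2 of LHX6, were above background in Pfeiffer. HOXB2 was higher by at least 1.14-fold and NKX2-1, the thyroid and lung factor, by at least 1.05-fold, with adjusted p = 0.0152 and 0.0213. NKX2-1 lay at 7.13 and 7.05 in Pfeiffer, just over background. Its other probe set was at 7.40 and 8.52 in Pfeiffer under shNTC and shEZH2, and at 4.17 and 2.99 in KARPAS-422 under shNTC.

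Genes with signal in both lines also differed. SOX4 was higher in Pfeiffer by 1.86 (SE 0.15, limma adjusted p = 2.5e-04), and 5 of its 6 probe sets were above background there against 2 in KARPAS-422. SOX5 was higher by 0.93 (adjusted p = 0.0088), although the mean of its probe sets gave -0.11, and HOXB4 by 0.90 (adjusted p = 0.0193). SIX4 was lower in Pfeiffer by 1.96 on the log2 scale (SE 0.27, adjusted p = 0.0023), SOX12 by 0.87, HOXB7 by 0.62 and HOXC4 by 0.53, with adjusted p = 0.034, 0.0109 and 0.0267. SOX12 was no longer called on leaving out any 1 KARPAS-422 array (-0.89 and -0.86 without shNTC replicate 1 and 2, -0.87 without either shEZH2 replicate), and HOXC4 on leaving out shNTC replicate 1 (-0.45) or either shEZH2 replicate (-0.53). HOXA2 and HOXD9, the latter named after its values were seen, were called lower too, but neither was above background in either line, so they have no fold. The epithelial markers summed to 13.42 in Pfeiffer and 7.37 and 7.79 in KARPAS-422 under shNTC, nearly all of it EPCAM, and the fibroblast markers to 9.41 against 13.75 and 13.64, nearly all of it DCN. The part of such line differences in those of the SOX, LHX and NKX genes was not tested.

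The genes that work with HOX proteins or act on these families were read from lists. Of 17 measured HOX partners and regulators, 1 was called higher and 3 lower in KARPAS-422 under shEZH2. Of all genes, 6.94% were called higher there and 6.2% lower. The higher one was PBX3, a HOX cofactor, at 8.33 and 8.49 and then 9.85 and 9.64 (1.34, limma adjusted p = 0.0036). MEN1 and WDR5, parts of histone methyltransferase complexes that act on HOX genes, were lower by 0.45 and 0.59, and GMNN, the replication regulator geminin, by 0.49, with adjusted p between 0.0242 and 0.0311. PBX4 was at 8.86 in Pfeiffer under shNTC and at 4.28 and 3.80 in KARPAS-422.

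Of 12 PRC2 subunits, 3 were lower in KARPAS-422 and 0 higher: EZH2 itself, RBBP4 and PHF19, the last 2 by 0.37 each. Of 14 measured PRC1 subunits and H3K27 demethylases, 2 were higher and 0 lower. The shares of all genes called were 6.94% higher and 6.2% lower. CBX7, a PRC1 reader of the Polycomb mark, was at 5.67 and 6.60 under shNTC and 8.25 and 7.81 under shEZH2, at least 1.96-fold higher against the background level of the shNTC arrays (measured difference 1.90, limma adjusted p = 0.0184), and PHC3 was higher by 0.45 (adjusted p = 0.0325). In Pfeiffer CBX7 was at 9.57 and 9.69.

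A further list held 79 measured developmental factors of other families, such as PAX, FOX and DLX genes. In KARPAS-422 8 of them were above background under shNTC and in Pfeiffer 17, and 59 were above background on no array. Of all genes, 47% and 54.9% were above background in these lines. Under shEZH2 0 were called higher and 2 lower in KARPAS-422, against 6.94% and 6.2% of all genes. MNX1, a motor neuron factor, was at 7.74 and 7.38 and then 5.90 and 6.12, below background, so at least 1.95-fold lower (measured difference -1.55, limma adjusted p = 0.0136), and WT1, a kidney and gonad factor, at 9.71 and 8.77 and then 7.66 and 7.76 (-1.53, adjusted p = 0.037). MNX1 was at 8.79 and 8.78 in Pfeiffer, and WT1 was not above background there.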

How the data were processed

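The authors deposited log2 signals; MAS5 is named in the submitters' processing notes without a version, and the log base was inferred, since 2 to the power of each value had a 2% trimmed mean of 500.0 on all 6 arrays. Of 54675 probe sets, 41091 carried 1 gene, and each of 19775 genes was read from its brightest probe set. No detection calls were used. Tests used limma 3.58.1 in R 4.3.3 across all genes (lmFit, eBayes with a trend, two-sided), with Benjamini-Hochberg adjusted p under 0.05: a model of 4 groups (residual df 2, prior 4.44), and a line and hairpin model for both lines. On simulated data at 19775 genes with 200 changed, the KARPAS-422 test recovered 93% of those at 1 log2 unit, with 15 others called. The changed genes were drawn from the brighter genes only, and each gene was given the typical spread at its level. The 93% thus does not apply to dim genes, which most members are, or to genes with a wider spread.

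Named were EZH2, members called, members above background in a group, Pfeiffer members past 1 log2 unit with signal, the brightest of each family, SOX9 and HOXB3; full values go to the main ones. Members and lists were chosen with earlier results of these data known. Signals of different probe sets do not rank genes. The replicate numbers were checked for pairing (correlation of deviations r = 0.024 over 19775 genes, across genes, which are not independent) and were not used as pairs.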

Additional observations from a re-analysis of the deposited data

How the results depend on the processing

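With 2 arrays per arm in KARPAS-422 and 1 in Pfeiffer, a dim gene can move by over 1 log2 unit between replicates, and most of these genes are dim: 41 of 89 passed a filter asking for 2 arrays above the median of all values, 6.21. No detection call marks absent signal. Adding 16 or 64 to the linear signal, which shrinks dim differences, lowered the Pfeiffer genes past 1 log2 unit from 24 to 11 and 1, and the filter lowered them to 2. In KARPAS-422 the called members were 5, and 2 with quantile normalization, 1 with cyclic loess, 1 with the mean of probe sets, 6 (5 higher, 1 lower) with pseudocount 16, 5 (4 higher, 1 lower) with pseudocount 64, 0 with no intensity trend, and 0 to 3 when 1 array was left out. The calls over all genes there (2598) were 1618 with the mean of probe sets, 1617 without _x_at and _s_at probe sets, 0 with no trend and 133 to 1581 with 1 array left out. Median centring moved the median of all genes from -0.05 to -0.15 in KARPAS-422 and from 0.01 to -0.25 between lines; calls there split into 1115 higher and 1851 lower, against 1372 and 1226. It split the line difference into 2098 higher and 4043 lower, against 2783 and 2706. Quantile normalization moved the line median to -0.11. Cyclic loess split the KARPAS-422 calls into 1275 higher and 830 lower.

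For both lines together, where 0 members and 302 genes were called, the filter gave 1 member and 811 genes; median centring gave 963 genes, pseudocount 64 gave 104, the mean of probe sets 77, no trend 0, and leaving out any 1 array 0. For the difference between lines (114 genes) the counts were 73 with pseudocount 16, 54 with pseudocount 64, 222 with the filter, 50 with the mean of probe sets, 0 with no trend, and 0 to 126 with 1 array left out. For the line difference under shNTC, no trend gave 5 members and 2650 genes, against 15 and 5489. A background level at the median of all values put 19 members in place of 11 above background in KARPAS-422, and averaging probe sets put 6 there and 15 in place of 25 in Pfeiffer.

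Replicate numbers as a block (a replicate block) left 5 members called in KARPAS-422 and 16 genes in both lines together; the 2 pairs share a number only. Of the values of single named genes under the alternatives, 579 kept direction and side of the threshold, 56 lost the call, 1 gained one (TBX19 at 1.86 without shNTC replicate 2, adjusted p = 0.0274) and 24 changed sign; the cause was not tested. With the mean of probe sets the KARPAS-422 difference became 0.086 for SOX4, -0.037 for SOX5 (and -0.11 for its line difference), -0.27 for SIX5, -0.15 for SOX7, 0.50 for SOX15, 0.16 for LHX6 and 0.11 for GATA3. Without _x_at and _s_at probe sets it became 1.08 for SOX15 and 0.56 for GATA3, and quantile normalization gave -0.04 for HOXB5. Leaving out 1 array, it ranged from -0.20 to 0.014 for SOX4, -0.20 to 0.61 for HOXC11, -0.27 to 0.17 for LHX3, -0.26 to 0.53 for SOX2, -0.31 to 0.16 for SOX15, -0.051 to 0.47 for NKX6-2, -0.14 to 0.66 for HOXD8, -0.88 to 0.20 for LHX6, -1.14 to 0.68 for LHX2, -1.17 to 0.40 for GATA3 and -0.72 to 0.35 for NKX2-1.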
